A study of Anethum foeniculum with 6 samples.

Results

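In the leaves of fennel, a herb of the carrot family that was grown here in hydroponics for its aromatic foliage, 104 assembled transcripts were much less abundant when red light was added to sunlight. They were chosen by their measured values, out of 127290 rows of the count table. A row was taken when its mean over the 6 libraries was at least 5 CPM (counts scaled to the library total), its highest red value lay below its lowest control value, and its control mean was at least 4 times its red mean. The control group was 3 leaf libraries from plants in ambient sunlight, and the red group was 3 leaf libraries from plants that received the same sunlight with narrow-wavelength red light from diodes. The labels call the libraries biological replicates and do not say how many plants each one held, so the spread between libraries may be partly technical. Neither the dose nor the duration of the red light, the age of the plants nor the cultivar is given in the sources used here. The 104 rows made up 0.739% of the 14079 rows whose mean was at least 5 CPM, which serve below as "all rows" for comparison.

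Plants sense red light mainly through phytochromes, photoreceptors that red light switches to an active form and far-red light switches back. Active phytochrome enters the nucleus, where it promotes the breakdown of PIF transcription factors (phytochrome-interacting factors) and so both induces and represses genes. Textbook examples of transcripts that red light represses come from dark-grown and shaded seedlings, and include PIF targets for stem elongation and the transcript of phytochrome A itself. In fennel, the leaf aroma comes largely from phenylpropenes such as anethole and estragole and from terpenes. The table gives assembly identifiers alone, without names, sequences or coordinates. It was therefore not analysed here which of the 104 rows belong to these pathways, and the leaf identity of the samples could not be checked against marker genes. A row is a gene as assembled from the reads without a genome, and the DN number in its identifier gives the assembled cluster it belongs to. In bulk leaf RNA, fewer cells of a type and less RNA per cell cannot be told apart.

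Together the 104 rows held about 1% of the leaf's counts in sunlight and far less under added red light. Their summed share was 0.966%, 1.09% and 1.09% of all counts in the controls (replicates 1 to 3, an order kept throughout), and 0.0944%, 0.116% and 0.235% under red light. The control libraries were close to each other, and red replicate 3 held more than either other red library. The group means were 1.05% ± 0.0723 and 0.148% ± 0.0754 (SD, n = 3 each), a ratio of 7.07. This direction is fixed by the choice of rows and is given without a test. Total counts were 18040162 to 22992137 per control library and 18839959 to 22673552 per red library, so the depth of the groups overlapped. Of these rows, 16 to 19 ranked among the 1000 most abundant rows of a control library, against 1 to 3 in a red library.

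**Figure D1:**
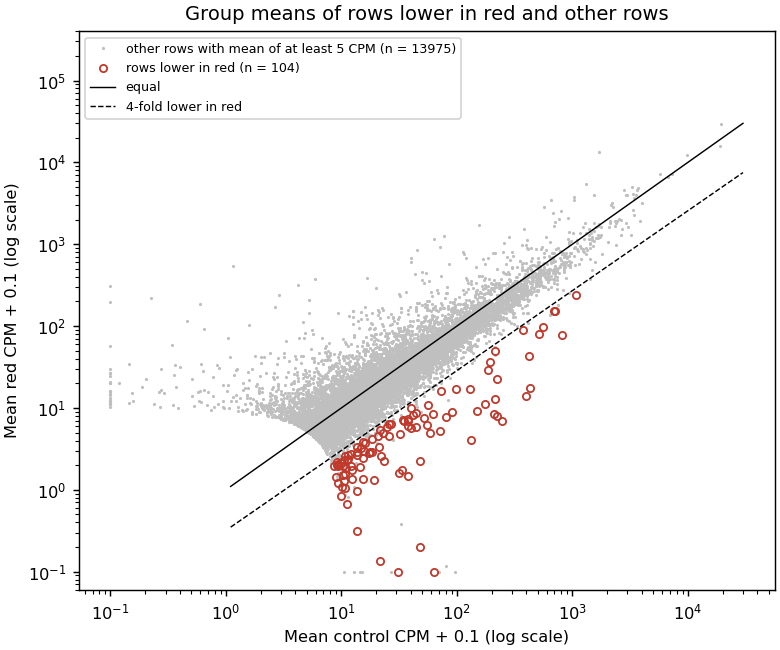
Mean control CPM against mean red CPM, each plus 0.1 on a log axis, for the 104 rows lower in red (open circles) and the rest of the 14079 rows of that abundance (grey). The solid line marks equal means and the dashed line a 4-fold lower red mean; grey points under the dashed line had overlapping groups.

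The rows ranged from scarce to abundant. Mean control level ran from 8.54 to 1085 CPM, with a median of 25.9 CPM and quartiles of 13.2 and 72.2 CPM. Mean red level ran from 0 to 239.8 CPM, with a median of 3.68 CPM and quartiles of 1.86 and 8.20 CPM. Among the 80 rows with a count in all 6 libraries, the control mean was a median of 5.96 times the red mean (quartiles 4.75 and 9.93). Of the 102 rows with any red count, 32 had a ratio of 4 to 5, 40 of 5 to 10, 17 of 10 to 20 and 13 of at least 20.

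Few rows carried most of the counts. The 22 rows with at least 100 CPM in control supplied 79.0% of the control counts of all 104. The 39 rows at 20 to 100 CPM supplied 15.9%, and the 43 rows under 20 CPM supplied 5.10%. The median ratio of control to red mean was 9.91 in the first of these classes, 6.74 in the second and 6.10 in the third, with the 2 rows at 0 in all red libraries (both in the second class) taken at their lower bound of 3 counts per red library. Ratios of at least 10 were found in 11, 13 and 8 rows. The 10 most abundant rows alone held 57.1% of the control counts of the set.

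TRINITY_DN16489_c0_g1 was the most abundant of the rows in control leaves. It stood at 498, 1002 and 1754 CPM in control and at 72.1, 313 and 334 CPM in red. Both groups spread widely, and the lowest control was 1.49 times the highest red value. The means were 1085 ± 632 and 239.8 ± 146 CPM (SD, n = 3), and the log2 fold change from edgeR was -2.05 (standard error 0.70). It moved to -1.49 without control replicate 3 and -1.62 without red replicate 1. With any other library left out it lay between -2.13 and -2.39. EdgeR's quasi-likelihood test did not call the row (adjusted p 0.43). This row held 10.3% of the control counts of the set.

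TRINITY_DN2836_c3_g2 ranked second. It stood at 1404, 396 and 643 CPM in the controls and at 155, 1.83 and 75.5 CPM in the red libraries. Red replicate 2 had few counts of this row, whereas red replicate 1 kept a readily measured amount. Another row of its cluster, described below, went the other way, at 84.0 CPM in red replicate 1 and 906 CPM in red replicate 2. The means of TRINITY_DN2836_c3_g2 were 814 ± 525 and 77.3 ± 76.4 CPM (SD, n = 3), and its log2 fold change was -3.25 (standard error 1.35). It moved to -2.60 without control replicate 1, -2.70 without red replicate 2, -4.28 without red replicate 1, -4.23 with a replicate block and -4.50 with limma-voom. With all libraries, edgeR's quasi-likelihood test did not call the row (adjusted p 0.57).

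The rows ranked 3 to 6 by control level kept a clear residue under red light. The row ranked 3 had 614, 759 and 742 CPM in control and 85.3, 89.4 and 289 CPM in red. The row ranked 4 had 449, 899 and 723 CPM in control and 50.7, 78.0 and 324 CPM in red. In both, red replicate 3 stood more than 3 times above the other red libraries and still below every control. The row ranked 5 had 433, 534 and 689 CPM in control and 85.0, 71.3 and 137 CPM in red. The row ranked 6 had 349, 667 and 539 CPM in control and 54.0, 31.7 and 157 CPM in red. Red replicate 3 was again the highest red library in each.

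Deeper differences were seen in the rows ranked 7 and 9. The row ranked 7 had 511, 389 and 395 CPM in control and 4.54, 4.21 and 44.1 CPM in red, a ratio of means of 24.5. The row ranked 9 had 533, 524 and 139 CPM in control and 2.12, 6.30 and 33.4 CPM in red, a ratio of 28.6. In these rows red replicates 1 and 2 were nearly empty of the transcript and red replicate 3 was partly so. The row ranked 8 had 600.05, 474 and 194 CPM in control and 57.5, 21.3 and 50.7 CPM in red, where red replicate 1 was the highest.

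In the row ranked 10, control values of 470.1, 188 and 461 CPM stood beside red values of 12.3, 176 and 77.3 CPM. Red replicate 2 there nearly reached control replicate 2. In the row ranked 11, control replicate 2 had 715 CPM while control replicates 1 and 3 had 13.3 and 12.7 CPM, close to the red values of 3.40, 8.28 and 8.55 CPM. Its ratio of means of 36.7 thus rested on that control library.

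**Figure D2:**
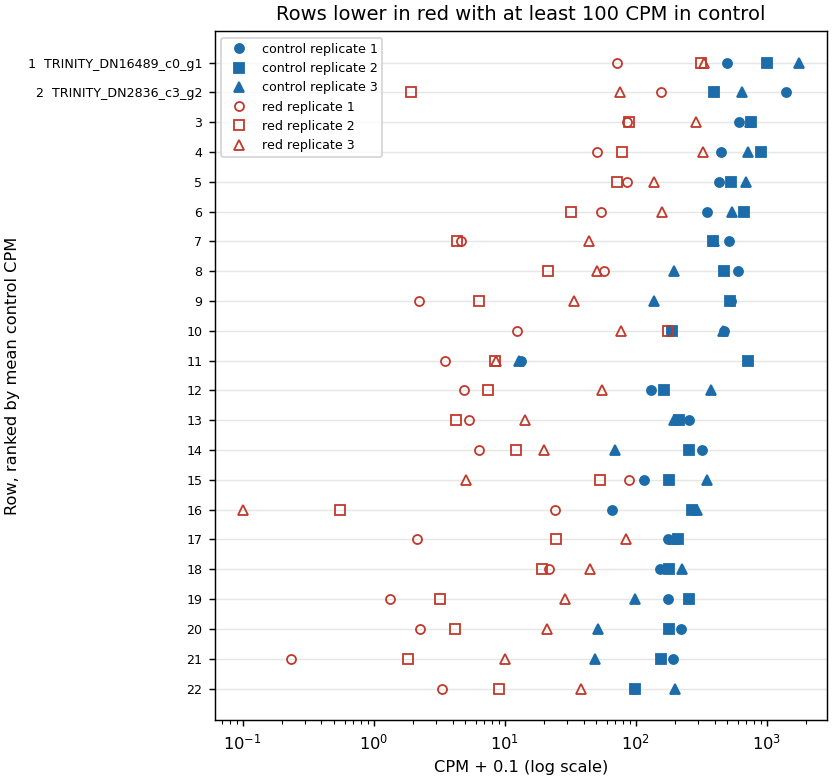
CPM plus 0.1 on a log axis in each of the 6 libraries for the 22 rows with at least 100 CPM in control, ranked by mean control CPM from top to bottom (filled blue symbols, control; open red symbols, red; circle, square and triangle for replicates 1, 2 and 3). Red replicate 3 is the rightmost red symbol in 17 of the 22 rows, and row 11 has 1 control far to the right of the other 2.

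Loss of detection was common among the scarcer rows. In the controls every row had more than 3 counts. In red replicates 1, 2 and 3, 15, 12 and 5 rows had no count, and 17, 13 and 8 had at most 3. In all, 18 rows had no count in 1 red library, 4 in 2 and 2 in all 3. A count of 0 allows up to 3 counts, or 0.132 to 0.159 CPM in the red libraries, for counting error only. Of the 104 rows, 76.9% had a count in every library, against 97.9% of all rows with a mean of at least 5 CPM. The rule takes rows that are low in red and allows no control value of 0, so this difference partly follows from the choice. Of the 22 most abundant rows, 1 had a red library at 0, as did 7 of the 39 in the middle class and 16 of the 43 scarce ones.

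Both rows that were at 0 in every red library varied strongly between controls. The first, ranked 28, had 1.55, 45.1 and 145 CPM in control (28, 854 and 3333 counts). Its mean of 63.9 CPM was at least 432-fold higher than 3 counts per red library would give. The second, ranked 50, had 43.2, 38.8 and 10.2 CPM, and its mean of 30.7 CPM was at least 208-fold higher on the same basis. Control replicate 1 was lowest in the first of these rows and control replicate 3 in the second. In the row ranked 35, control replicates 1 and 2 had 70.5 and 72.6 CPM, but control replicate 3 had 0.304 CPM, close to the red values of 0.0441, 0.203 and 0.0531 CPM.

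Separation between the groups was wide in some rows and narrow in others. The lowest control value was a median of 2.09 times the highest red value over the 102 rows with a red count. It was at least 4 times as high in 11 rows and at least 2 times as high in 53. In 30 rows it was less than 1.5 times as high, and in 7 less than 1.1 times. The limits of the rule cut through a continuum. The 3 rows just inside the limit on the ratio had 4.02, 4.07 and 4.08, and the 3 just outside had 3.99, 3.97 and 3.97. Another 86 rows without overlap had ratios of 3 to 4. The 3 rows just inside the limit on abundance had means of 5.11, 5.16 and 5.20 CPM, and the 3 just outside had 4.97, 4.94 and 4.93 CPM. Of the 147 rows with at least a 4-fold lower red mean, 43 were not taken because the groups overlapped.

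Red libraries lay below controls in many more rows than the 104. All 3 red values were below all 3 control values in 2532 of the 14079 rows (18.0%), and above them in 989 (7.02%). These counts moved with the scaling. The median row had a log2 ratio of red to control mean of -0.15 on library totals and of -0.04 with TMM (trimmed mean of M-values) scaling, under which 1570 rows (11.1%) lay below and 1405 (9.98%) above. With TMM scaling, 90 of the 104 rows still met the rule and no other row joined them, and the median ratio of the 80 fully detected rows was 5.53.

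The red libraries did not share the low level equally. Relative to its control mean, the median row stood at 0.0664 in red replicate 1, 0.0929 in red replicate 2 and 0.201 in red replicate 3. Over all 14079 rows the same medians were 0.858, 0.869 and 0.903. Red replicate 3 exceeded 25% of the control mean in 40 of the 104 rows, against 11 rows in each of the other red libraries. The order of libraries within a group was not part of the rule. Red replicate 3 was the highest red library in 65 of the 104 rows (62.5%), against 41.6% of all 14079 rows, and red replicate 1 was the lowest in 60 rows (57.7%), against 38.9%. Scaled by TMM, red replicate 3 was highest in 66 rows.

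A gap of at least 2-fold between red replicate 3 and both other red libraries was found in 52 of the 104 rows, or 50%, and in 7.74% of all 14079 rows. It was found in 13 of the 22 abundant rows (59.1%, against 9.17% of all rows with at least 100 CPM in control). It was found in 21 of the 39 rows of the middle class and in 18 of the 43 scarce rows, against 8.60% and 6.90% of all rows in those classes. The classes were set by control level, and the 104 rows are low in red by choice. The gap was therefore not compared with rows of like red level. Red replicates 1 and 2 stood that far above the other red libraries in 7 rows each (6.73%, against 4.72% and 3.42% of all rows). Red replicate 1 stood at least 2-fold below both others in 30 rows (28.8%, against 5.92%), red replicate 2 in 14 (13.5%, against 2.46%) and red replicate 3 in 7 (6.73%, against 7.30%). The rule limits how high a red library may be but not which one is highest. No cause of the gap was tested.

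**Figure D3:**
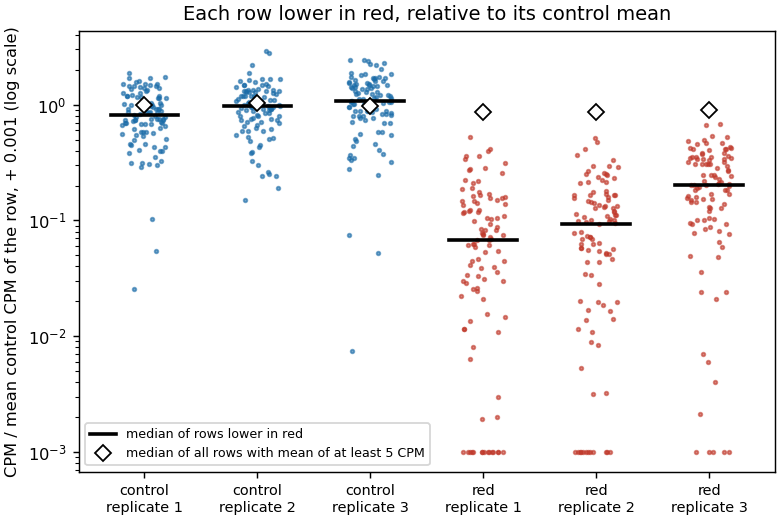
CPM of each of the 104 rows divided by its mean control CPM, plus 0.001 on a log axis, in each library (1 point per row; bars, median of the 104 rows; diamonds, median of all 14079 rows with a mean of at least 5 CPM). The bar lies at 0.0664, 0.0929 and 0.201 in red replicates 1 to 3, while the diamonds stay between 0.858 and 0.903 there; points on the bottom line had no count.

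Control leaves also differed among themselves in these rows. The median coefficient of variation was 49.3% in control and 86.6% in red, against 18.3% and 29.3% over all 14079 rows. Part of this spread may follow from the choice, since 1 high control can carry a row past the 4-fold limit. The rows are also low in red by choice, and spread was not compared at like levels. Control replicate 3 was the highest control in 49 rows (47.1%, against 29.5% of all rows) and control replicate 1 the lowest in 44 (42.3%, against 34.0%). In 16 rows (15.4%, against 2.32% of all rows) control replicate 3 stood at least 2-fold above both other controls, and in 10 rows (9.62%, against 2.85%) at least 2-fold below both. Control replicates 1 and 2 stood that far below the other controls in 10 and 9 rows, and that far above in 3 and 6. The rows with a low control replicate 3 included 5 of the 22 abundant rows. In those 10 rows the median level was 142, 119 and 32.0 CPM in control and 1.12, 2.92 and 8.07 CPM in red. In the 16 rows with a high control replicate 3 the medians were 7.34, 9.10 and 33.4 CPM in control and 1.21, 2.29 and 2.28 CPM in red. These patterns were picked out after the values were seen and are given without a test.

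Across the 104 rows, Pearson's r of log2(CPM + 0.5) was 0.82, 0.73 and 0.68 between control replicates 1 and 2, 1 and 3, and 2 and 3. The same pairs of red replicates gave 0.66, 0.55 and 0.67. These values are across rows of the same libraries, which are not independent replicates. Over all 14079 rows they were 0.90 to 0.92 in control and 0.76 to 0.85 in red.

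The rule was also applied to 5 libraries at a time, and the library left out was compared with the opposite group. That group took part in choosing the rows, so chance-high controls (or chance-low red values) raise the shares below, and the share over all rows is not the value that no difference would give. Without red replicate 1 it took 125 rows, and red replicate 1 lay below every control in 93 of them (74.4%), against 47.6% of all rows with a mean of at least 5 CPM in the 5 others. Without red replicate 2 it took 135 rows, and that library lay below every control in 113 (83.7%, against 46.1%). The median ratio of the left-out library to the control mean was 0.154 for red replicate 1 and 0.161 for red replicate 2, against 0.834 and 0.852 over all rows. Red replicates 1 and 2 were above every control in 6 and 3 of the rows chosen without them. The rows are not independent of each other, so these shares are descriptions without a test.

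For red replicate 3 the same choice gave more rows and a lower share. The rule took 405 rows without it, of which 99 were among the 104. Red replicate 3 lay below every control in 227 of the 405 (56.0%, against 39.0% of all rows), between the lowest and highest control in 128 and above every control in 50. Its median ratio to the control mean was 0.674, against 0.896 over all rows, and it was at or under 25% of the control mean in 61 of the 405. With TMM scaling the rows chosen without it numbered 347. It was below every control in 49.6% of these, against 28.2% of all rows. The difference between the 3 left-out red libraries was not tested.

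Controls left out in the same way mostly stayed above the red libraries. Control replicate 1 lay above every red library in 103 of 126 rows (81.7%, against 33.3% of all rows). Control replicate 2 did so in 96 of 121 (79.3%, against 39.7%) and control replicate 3 in 94 of 118 (79.7%, against 32.3%). The median ratio of the left-out control to the red mean was 3.77, 3.80 and 4.50, where all rows gave 1.08, 1.10 and 1.05. The left-out control was below every red library in 1, 3 and 3 rows.

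**Figure D4:**
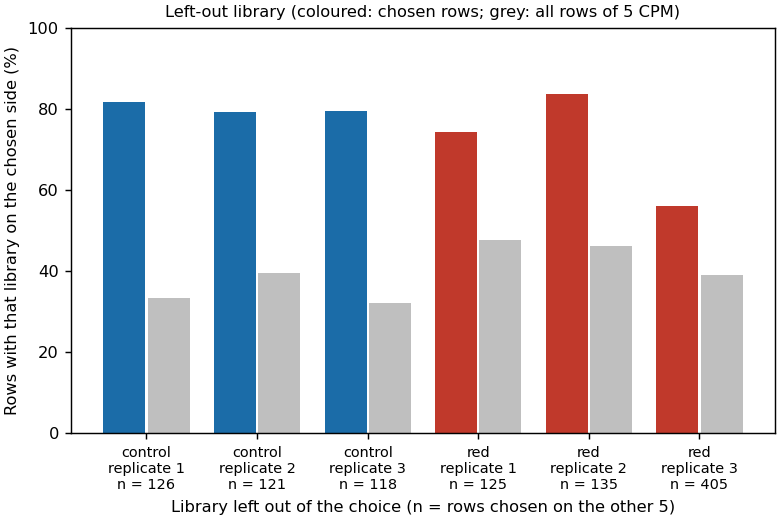
Share of rows, in percent, in which a library left out of the choice lay on the chosen side (a control above every red library, blue; a red library below every control, red) among the rows chosen on the 5 other libraries, with the same share over all rows with a mean of at least 5 CPM in grey. The coloured bars stand at 74.4% to 83.7% except for red replicate 3 at 56.0%, and the grey bars at 32.3% to 47.6%.

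The fit across the whole table used the same contrast as the rule, so its calls add nothing to the choice and are given for description. Of the 104 rows, 103 passed the filter on low counts. EdgeR's quasi-likelihood test called 0 of them lower at an adjusted p under 0.05, as it did 0% of all 36013 tested rows. At an unadjusted p under 0.05 it listed 77 of the 103, against 3.77% of all tested rows. Limma-voom also called 0, and listed 88 at an unadjusted p under 0.05 (5.37% of all). DESeq2 called 52 lower (1.91% of all), and edgeR without a filter called 27 of the 104 (0.0326% of all). Without red replicate 3 edgeR called 7 of the 104, against 0.0323% of the rows then tested.

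The assembler's grouping was not used by the rule and gives a view of the rows that share a cluster with the 104. The 104 rows lay in 101 clusters. For 49 of the clusters the row taken was the only one, and the other 52 held 142 further rows, of which 57 had a mean of at least 5 CPM. Of these 57 neighbours, 9 (15.8%) lay below every control in all red libraries and 5 (8.77%) above, close to the 18.0% and 7.02% of all rows. Their median ratio of control to red mean was 1.22, against 1.11 over all rows. Most of the neighbours above came from the same cluster. Within subclusters, the assembler's finer grouping, there were 21 such neighbours, with 2 (9.52%) below and 1 (4.76%) above. Rows of a cluster may be fragments, copies or alleles, or may be unrelated, and may share reads. The table does not tell these apart.

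Summing the counts of a cluster often reduced the difference, which largely follows from the choice, since most rows added had not met the rule. The cluster sum met the rule in 18 of the 52 clusters of several rows. In 38 of the 52 all red sums lay below all control sums, and in 3 the red mean was above the control mean. Each sum contains a row chosen for its lower red values, so these counts partly follow from the choice. The same shares over all clusters of several rows were not computed. In 1 cluster the row taken had 1.39, 38.2 and 1.00 CPM in control and 0, 0 and 0.637 CPM in red. A neighbour in that cluster had 0, 0 and 0.261 CPM in control and 32.2, 14.1 and 7.96 CPM in red. The sum of that cluster was 1.39, 38.2 and 1.26 CPM in control and 32.2, 14.1 and 8.60 CPM in red. Its means were 13.6 CPM in control, which rested on control replicate 2, and 18.3 CPM in red. The groups overlapped in the sum, so the separation seen in either row was not kept.

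The cluster of TRINITY_DN2836_c3_g2 was the only one with 3 of the 104 rows, ranked 2, 7 and 13 by control level. The row ranked 13 had 256, 213 and 196 CPM in control and 5.25, 4.16 and 14.1 CPM in red. It had the tightest controls of the 3, and its lowest control was 13.9 times its highest red value. Another abundant row of the cluster was not among the 104. It had 1585, 2319 and 850 CPM in control and 84.0, 906 and 806 CPM in red, where red replicate 2 exceeded control replicate 3. A scarcer row was nearly level, at 16.7, 20.6 and 16.1 CPM in control and 14.0, 17.1 and 14.9 CPM in red. The 3 rows taken thus stood beside others of the same cluster that overlapped between the groups.

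**Figure D5:**
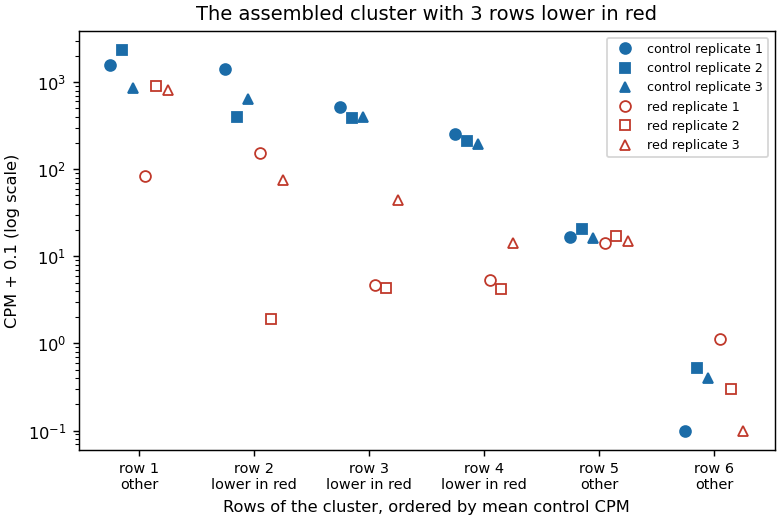
CPM plus 0.1 on a log axis in each library for the 6 rows of the cluster that holds 3 of the 104 rows, ordered by mean control CPM (filled blue, control; open red, red; circle, square and triangle for replicates 1, 2 and 3). Rows 2, 3 and 4 are lower in all red libraries; in rows 1 and 5 the groups overlap, and row 6 is near 0 throughout.

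A second cluster held 2 of the 104 rows, ranked 32 and 41. The row ranked 32 had 65.6, 13.8 and 84.9 CPM in control and 2.38, 8.99 and 6.90 CPM in red. The row ranked 41 had 25.7, 11.2 and 75.9 CPM in control and 0, 2.34 and 1.80 CPM in red. Control replicate 2 was the lowest control in both. In 3 other rows of this cluster the control mean was 3.02 to 4.20 times the red mean, and red replicate 2 lay above control replicate 2, so the groups overlapped. A further row of the cluster was seen mainly in control replicate 3, at 37.7 CPM.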

How the data were processed

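The authors deposited 1 table of raw counts per assembled gene, with 6 columns. The columns were matched to libraries by the library names in the labels. Row names follow the Trinity assembler, per the file headers. The aligner and the counting program were not given in the sources used here. Per the labels' protocols, RNA from about 50 mg of leaf was read as pairs of 150 bp.

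CPM were computed on column totals. The whole table was fitted with edgeR 4.0.16 (quasi-likelihood, filterByExpr, TMM, light as the only term; R 4.3.3), with Benjamini-Hochberg adjustment over all tested rows. DESeq2 1.42.0, limma-voom (limma 3.58.1), other scalings, no filter, a replicate block and leaving out 1 library at a time were alternatives. Standard errors were derived from the F statistic. The edgeR fit was tried on simulated counts with the same spread setting for every row, and the rule was checked on a small made-up table. Same-numbered libraries did not deviate together (r = -0.06, -0.02 and -0.05), so numbers were not treated as pairs. The rows and comparisons were chosen with earlier results of these data known. The 2 identifiers printed are those with the highest control mean among rows with more than 3 counts in every library. Precision is limited by 3 libraries a group, and floors cover counting error only.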

Additional observations from a re-analysis of the deposited data

How the results depend on the processing

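The 104 rows became 65 with a mean of at least 10 CPM, 236 with at least 2 CPM, 190 with a ratio of at least 3, 39 with at least 8, and 69 clusters when counts were summed per cluster. With 1 library left out the rule took 118 to 405 rows, the highest without red replicate 3. Among them were 76 to 99 of the 104, so some of the 104 dropped out and other rows came in. TMM scaling took 90 rows (90 of the 104), a fold on log2(CPM + 2) took 76 (64 of the 104) and, added after seeing the data, medians took 149 (89 of the 104) and sums per subcluster 85. EdgeR called 0 of the rows with the other scalings and with a replicate block (0% of all tested rows). It called 27 without a filter (0.0326% of all), and 0 to 7 with 1 library left out (0% to 0.0323% of all). DESeq2 called 52 (1.91% of all). These calls used the contrast of the rule and add nothing to the choice. Without the most abundant row the control share was 0.941% of counts. With 1 library left out the control share was 1.03% to 1.09% and the red share 0.105% to 0.176%. With TMM scaling, red replicate 2 lay below every control in 74.1% and red replicate 3 in 49.6% of the rows chosen without them, where all rows gave 37.5% and 28.2%. With a mean of at least 10 CPM, control replicate 3 lay above every red library in 86.9%, against 34.2% of all rows. The causes were not tested. When counts were summed per cluster, the red mean was above the control mean in 3 of the 52 clusters of several rows. The log2 fold changes of the 2 identified rows kept their sign in every fit. This follows from the rule, which put all their red values below all their control values. At 3 counts a library, rows near 0 in red cannot be ranked.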
